A study of Mus musculus with 9 samples.

Results

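Lungs of mice given bacterial lipopolysaccharide (LPS) were compared with lungs of mice given sterile saline. The comparison used 3 LPS libraries and 3 control libraries of polyadenylated RNA, 6 of the 9 libraries of the series. The other 3 came from mice that received LPS and inhaled PD at 10 mg/mL (panaxadiol, by the title of the series). These libraries entered the fit to estimate the spread between libraries, and entered the mean level by which genes were filtered. Control mice received 0.9% NaCl and LPS mice 50 µg of LPS per mouse, and all were 12 weeks old. They were female by the labels, although Xist, the transcript of the inactive X chromosome, did not exceed 0.0895 FPKM and the Y-linked gene Ddx3y stood at 15.4 to 31.9 FPKM in the 6 libraries. The design text gives 6 animals per group. The sources used here do not give the strain, the route of LPS or the time between LPS and sampling. Nothing in the labels ties each library to a separate animal, so the p-values reflect the spread from library to library alone, and that spread may be technical. All genes with a mean of at least 0.5 FPKM (fragments per unit of transcript length, scaled to the mapped fragments of the library) over the 9 libraries were taken, 16227 of 32114. Levels and differences were described for 60 gene lists and for the genes that separated the groups most widely.

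LPS is the outer membrane lipid of Gram-negative bacteria. It is recognised by the receptor TLR4 with its partners MD-2 and CD14, and the signal releases NF-kB, a transcription factor that switches on cytokines, chemokines and its own inhibitors. In the lung the chemokines of epithelium and macrophages call neutrophils out of the blood, and acute-phase proteins and protease inhibitors are made beside them. The airway and alveolar epithelium forms the barrier through its tight junctions, and growth factors of the EGF family drive its repair.

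All 8 markers taken to define lung were present in every library. The lowest of these values was 30.9 FPKM, for Nkx2-1, the master transcription factor of lung epithelium, and their summed level was lowest in LPS replicate 2, at 8315 FPKM. Depth, read from the steps of the values, was 15.2 to 17.3 M reads in the 6 libraries. LPS replicate 2 stood apart from the rest: no library correlated with it above 0.914 across genes, whereas each of the others had a partner at 0.971 or more. Its mean was the highest of the 3 LPS libraries in 30 of the 60 lists and the lowest in 22. Calls of named genes that were lost without it are marked where they are given. In bulk tissue, fewer cells of a type and less RNA per cell cannot be told apart.

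In limma, 613 genes (3.78% of those tested) had an adjusted p under 0.05. Of these 200 were higher in LPS (1.23%) and 413 lower (2.55%), and in 404 the difference was 2-fold or more. Before adjustment 4857 of the 16227 genes tested had a limma p under 0.05, which is the background for such counts in the lists. Single calls in a list are to be read beside the 3.78% called among all genes. All differences are on the scale of log2(FPKM + 1). The groups did not overlap in any of the 613 genes, but they also did not overlap in 6107 of all genes tested (37.6%). LPS replicate 2 was the highest LPS library in 150 of the 200 rises and the lowest in 295 of the 413 falls. Without it 305 genes were higher (1.88%) and 300 lower (1.85%), and 393 genes were called both with and without it. The count moved widely between fits. It was 9 when only the 6 libraries compared were fitted, 10 with the replicate number as a block, and 7 without control replicate 2. The split of higher against lower calls moved to 160 and 210 with median-ratio scaling and to 204 and 188 with equal FPKM totals. The median gene stood at -0.11, and median-ratio scaling shifted it by that amount, to about 0.

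**Figure D1:**
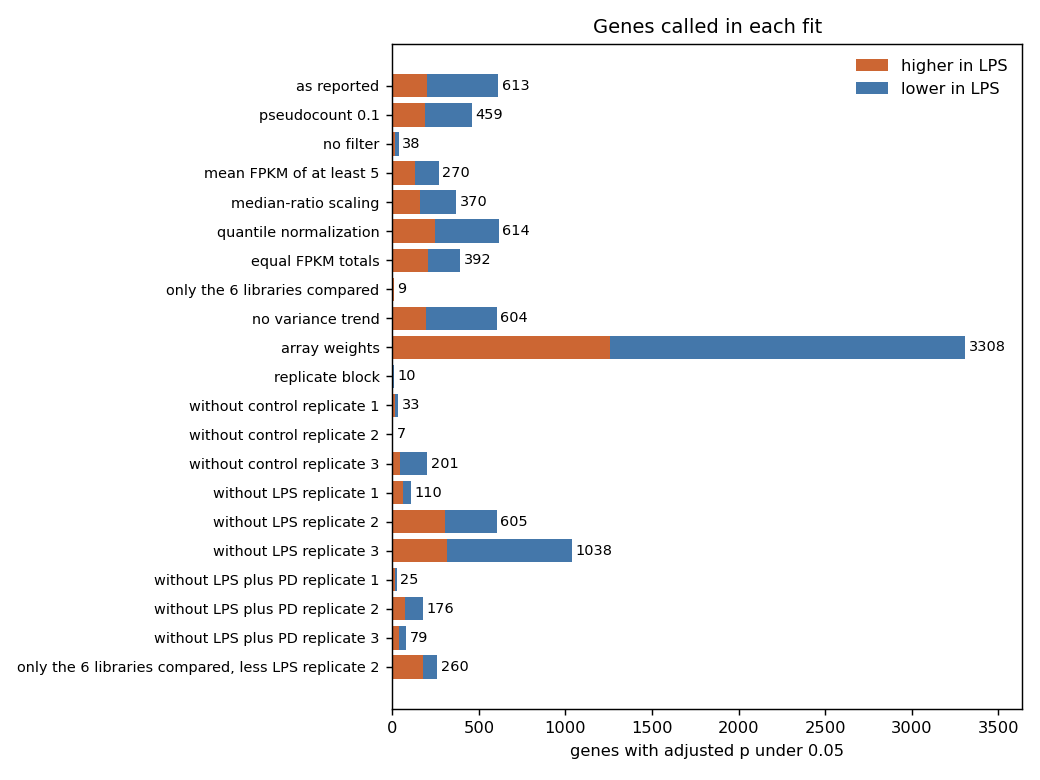
Number of genes with an adjusted p under 0.05, higher (orange) or lower (blue) in LPS than in control, in the fit as reported and in each alternative fit, on a linear axis. The totals run from 7 without control replicate 2 to 3308 with array weights, beside 613 as reported.

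The widest gaps upward, from the highest control library to the lowest LPS library, were in Saa3, Ly6i, Lcn2, Saa1, Cxcl2, Cxcl3, Ifitm6, Stfa2l1, Fst, Pla1a, Il1b and Il1r2. Saa3, a serum amyloid A protein of inflamed tissue, stood at 1.62, 4.98 and 3.36 FPKM in control replicates 1, 2 and 3 and at 138, 478 and 253 FPKM in the LPS replicates, a rise of 5.97 ± 0.702 (log2 difference ± SE, adjusted p = 0.013). Saa1, another member of that family with near-identical copies, stood at 0.0719, 0.206 and 0.2104 and at 9.16, 10.4 and 14.3 FPKM (3.38 ± 0.43, adjusted p = 0.0193). Here the 3 LPS libraries lay close together, and both genes were among the 9 called when only 6 libraries were fitted. Lcn2, lipocalin 2, which withholds iron from bacteria, stood at 22.6, 37.4 and 28.1 and at 390.4, 1439.5 and 459 FPKM, rising by 4.42 ± 0.49, or by 3.83 without LPS replicate 2. Pla1a, a phospholipase that acts on phosphatidylserine, was even between libraries, at 1.66, 2.03 and 3.64 and at 30.2, 31.8 and 24.9 FPKM (3.15 ± 0.26, adjusted p = 0.00747). Fst, follistatin, which binds and blocks activin, stood at 1.27, 1.06 and 1.63 and at 30.8, 20.3 and 13.8 FPKM and rose by 3.23 ± 0.43, with LPS replicate 1 the highest.

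The next 5 rises with a wide gap had their peak in LPS replicate 2, as did Saa3, Lcn2 and Pla1a above. Il1b, the cytokine interleukin 1 beta, stood at 29.996, 458 and 27.7 FPKM in the LPS libraries, so that 1 library carried most of its mean, and its difference was 4.15 with and 2.83 without that library. Ly6i, a Ly6-type surface protein, stood at 0.668, 1.38 and 1.403 and at 40.9, 232 and 24.7 FPKM and rose by 4.89 ± 0.72. Ifitm6, a member of the interferon-induced membrane proteins, rose by 3.59 ± 0.48, from 3.08, 1.62 and 2.94 to 35.7, 83.4 and 22.7 FPKM. Stfa2l1, a stefin, rose by 3.97 ± 0.58 and Il1r2, the decoy receptor that takes up interleukin 1, by 3.45 ± 0.53. Each of these 5 genes was also called without LPS replicate 2, with adjusted p from 0.00475 (Il1r2) to 0.0162 (Stfa2l1). The Ly6 and stefin families hold close copies, which leaves the split of reads between them uncertain.

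The widest gaps downward held 7 heart or skeletal muscle genes and 5 others. Krtap17-1, a keratin-associated protein, stood at 31.3, 25.9 and 26.4 FPKM in control and 2.597, 0.431 and 2.76 FPKM in LPS and fell by 3.42 ± 0.39 (adjusted p = 0.0127). Sfn, the 14-3-3 protein of epithelial cells, stood at 47.3, 102 and 68.9 and at 14.04, 15.4 and 16.4 FPKM (-2.11 ± 0.24, adjusted p = 0.0127). The LPS libraries of Sfn lay close together, while the controls spread more widely. Akr1b7, an aldo-keto reductase, stood at 2.92, 4.62 and 3.26 and at 0.234, 0.308 and 0.318 FPKM and fell by 1.82 ± 0.16. Chad, chondroadherin, a cartilage matrix protein, stood at 18.2, 60.3 and 12.6 and at 3.81, 1.29 and 3.71 FPKM (-2.75 ± 0.53). Scgb3a2, a secretoglobin of club cells, fell by 3.598 ± 0.798. Neither Chad (-2.403, adjusted p = 0.0517) nor Scgb3a2 (-2.89, adjusted p = 0.0661) passed without LPS replicate 2. The muscle genes were Cox7a1, Cox8b, Mb, Tnni3, Tnnc1, Myl7 and Tcap.

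**Figure D2:**
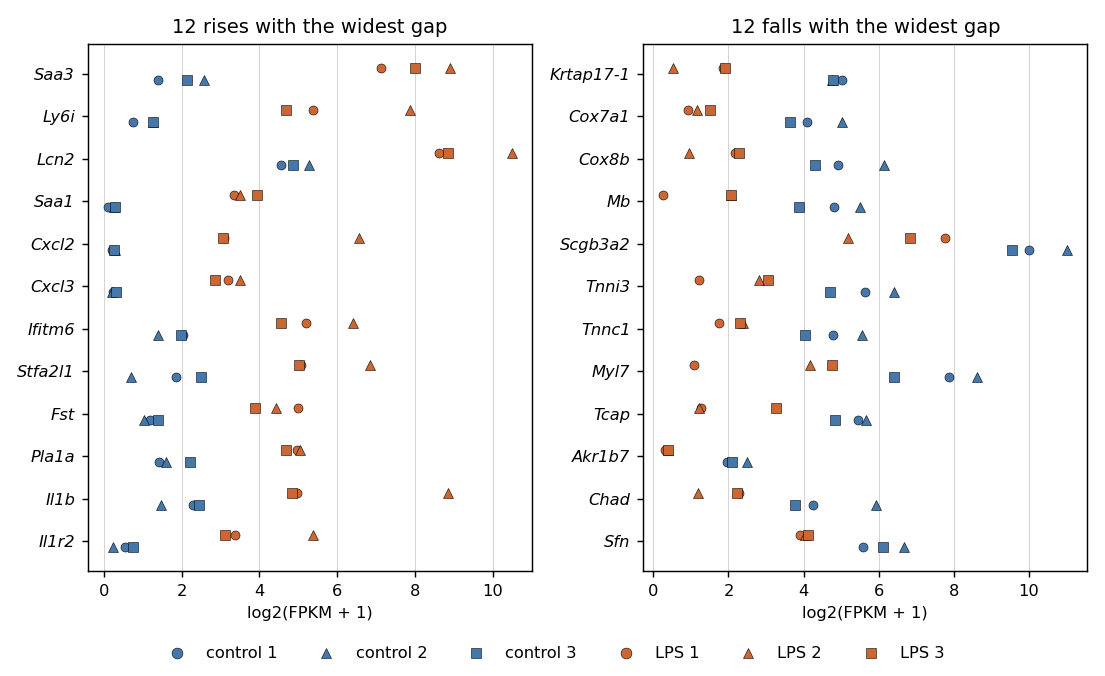
Level of the 12 rises (left) and the 12 falls (right) with the widest gap between the groups, as log2(FPKM + 1); each point is 1 library, blue for control, orange for LPS, with the replicate as the shape. The groups do not overlap in any of the 24 genes, and the triangle of LPS replicate 2 lies far to the right for Il1b and Cxcl2 but among the other LPS libraries for Saa1 and Pla1a.

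A few calls were kept whichever library was left out. The 7 genes called in all 9 fits that left 1 library out, picked after their values were seen, were Serpina3n, Pla1a, Akr1b7, Serpina3m, Ccl9, Sfn and Cox7a1. Serpina3n, an acute-phase protease inhibitor, stood at 61.6, 72.95 and 58.4 and at 337, 378 and 325 FPKM (2.42 ± 0.18, adjusted p = 0.00719), and its neighbour Serpina3m at 0.622, 1.07 and 0.91003 and at 5.78, 6.19 and 5.59 FPKM (1.88 ± 0.18). The Serpina3 cluster holds close copies. Among genes called in at least 8 of the 9 fits were Chil1, a chitinase-like protein (3.21 ± 0.34), Orm1, an acute-phase glycoprotein (2.29 ± 0.28), Ltb4r1, the leukotriene B4 receptor of neutrophils (1.84 ± 0.22), and F2r, the thrombin receptor (1.78 ± 0.203). Falls among them were Krt8, a keratin of simple epithelium, from 322, 556 and 379 to 89.1, 111 and 125 FPKM (-1.92 ± 0.24), and Slc5a3, the inositol transporter (-1.05 ± 0.12).

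Neutrophil-attracting chemokines and their receptors included 4 rises among 9 members tested, with a median difference of 2.93 (2.42 without LPS replicate 2), beside -0.11 over all genes tested. Cxcl3, a ligand of the neutrophil receptor Cxcr2, had control levels of 0.1697, 0.146 and 0.248 FPKM and LPS levels of 8.08, 10.2 and 6.28 FPKM (2.93 ± 0.39, adjusted p = 0.0221). Cxcl2 and Cxcl1, ligands of that receptor too, were less even. Cxcl2 stood at 0.144, 0.216 and 0.196 and at 7.47, 93.7 and 7.299 FPKM (3.99 ± 0.84), and Cxcl1 at 1.298, 2.72 and 2.47 and at 17.9, 146 and 17.6 FPKM (3.59 ± 0.8003); in both, LPS replicate 2 was several times above the other LPS libraries. Cxcr2 itself stood at 3.21, 0.982 and 1.86 and at 16.6, 66.7 and 12.5 FPKM (3.13 ± 0.54, 2.42 without LPS replicate 2). Cxcl5, a further ligand made by epithelium, had a difference of 3.88 that missed the threshold (adjusted p = 0.0644), and Cxcl15, a chemokine of resting lung epithelium, stood at 642, 592 and 662 and at 477, 433 and 623 FPKM.

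The promoters of these 4 genes are shown because 4 of the 8 listed members with a promoter window held the letters GGGNNTTTC, the core of an NF-kB site, on either strand, against 5.1% of 11127 tested genes with a window. The windows are those of RefSeq on GRCm38.p6, 250 bases before to 50 after the annotated start, given 5′ to 3′ on the strand of the gene, with matches in capitals. Cxcl1 (chr5:90890995-90891294), Cxcl2 (chr5:90903649-90903948) and Cxcl3 (chr5:90785851-90786150) lie on the plus strand of 1 cluster, and Cxcr2 (chr1:74153744-74154043) lies on the plus strand of another chromosome.
Cxcl1: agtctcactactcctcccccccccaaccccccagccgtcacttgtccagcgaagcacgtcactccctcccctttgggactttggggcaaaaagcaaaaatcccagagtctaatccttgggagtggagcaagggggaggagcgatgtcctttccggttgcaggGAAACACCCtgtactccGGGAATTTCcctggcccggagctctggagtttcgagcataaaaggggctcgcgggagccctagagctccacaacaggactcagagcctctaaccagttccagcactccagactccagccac
Cxcl2: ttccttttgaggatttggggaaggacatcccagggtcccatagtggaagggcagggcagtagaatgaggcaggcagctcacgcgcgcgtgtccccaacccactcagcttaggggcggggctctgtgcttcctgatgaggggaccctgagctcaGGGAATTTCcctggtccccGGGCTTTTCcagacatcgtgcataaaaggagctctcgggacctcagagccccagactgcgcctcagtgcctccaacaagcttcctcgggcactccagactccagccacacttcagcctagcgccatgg
Cxcl3: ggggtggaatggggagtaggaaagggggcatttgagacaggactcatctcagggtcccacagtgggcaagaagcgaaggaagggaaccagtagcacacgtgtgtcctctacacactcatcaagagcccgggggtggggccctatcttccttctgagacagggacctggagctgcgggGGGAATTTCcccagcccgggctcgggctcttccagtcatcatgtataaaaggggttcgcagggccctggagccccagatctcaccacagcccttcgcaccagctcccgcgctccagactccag
Cxcr2: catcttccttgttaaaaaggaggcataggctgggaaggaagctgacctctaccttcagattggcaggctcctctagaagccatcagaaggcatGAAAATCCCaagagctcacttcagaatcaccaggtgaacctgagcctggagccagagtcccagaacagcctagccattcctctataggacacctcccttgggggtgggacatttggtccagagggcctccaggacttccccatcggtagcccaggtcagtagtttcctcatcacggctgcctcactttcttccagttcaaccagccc

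In the 3 ligand promoters 1 match each had the same letters, GGGAATTTC, and began 71, 97 and 73 bases before the start in Cxcl1, Cxcl2 and Cxcl3. These neighbours in 1 cluster, with the same letters at a similar place, need not count as 3 separate cases beside the share of tested genes. Cxcr2 held a single match on the other strand, 157 bases before the start. The letters were changed after matches had been seen. A form of 10 letters, with a further C at the end, was searched first and matched 3 of the 8 genes, Cxcl1, Cxcl2 and Cxcl3, against 2.04% of tested genes. The form shown has 9 letters and adds Cxcr2, so the count of 4 owes that gene to the change. Of 2 other forms of 9 letters also tried, the one without the first G matched 3 genes (7.37% of tested genes) and the one with 1 T fewer matched 0 of the 8 (8.57%). In all, 7 motifs were searched in 6 gene sets, and no test was made of these shares. A match is a description of letters and not of binding.

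Among inflammatory CC chemokines and receptors, 4 of 18 rose (median 1.502, 0.8005 without LPS replicate 2). Ccl9, a chemokine of macrophages, was even across LPS libraries, at 5.01, 4.098 and 7.002 in control and 25.6, 20.6 and 31.4 FPKM in LPS (2.08 ± 0.202, adjusted p = 0.0092). Ccl20, which attracts dendritic cells and Th17 cells through Ccr6, stood at 0.418, 1.25 and 0.367 and at 12.3, 5.498 and 15.7 FPKM (2.79 ± 0.52), and here LPS replicate 2 was the lowest of the LPS libraries. Ccr1, a receptor of Ccl3 and Ccl5, rose by 2.31 ± 0.48 and Ccl5 by 3.13 ± 0.71. Of 13 homeostatic chemokines and receptors 2 rose. Cxcl13, which guides B cells, stood at 3.82, 6.81 and 3.43 and at 17.1, 28.9 and 27.1 FPKM (2.17 ± 0.37), and Ccr7 rose by 1.02 ± 0.23 but did not pass without LPS replicate 2 (adjusted p = 0.0669). The CXCR3 ligands of the interferon response stood out for 1 library: Cxcl9 was at 2.32, 525 and 3.96 FPKM, Cxcl10 at 3.298, 693 and 2.72 FPKM and Cxcl11 at 0.126, 46.5 and 0.138 FPKM over the 3 LPS libraries in order of replicate. None of that list's 4 members passed in limma, with 1 at an unadjusted p under 0.05, and the median moved from 2.72 to 0.58 without LPS replicate 2.

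Calls among cytokines and their receptors were more numerous without LPS replicate 2. Interleukin 1 family members numbered 2 rises of 12, Il1b and Il1r2, and 5 without that library (list median 1.73, then 0.88). Of 10 colony stimulating factors and receptors 2 rose: Csf2, which sustains alveolar macrophages, from 2.301, 3.104 and 2.46 to 5.91, 10.1 and 5.76 FPKM (1.16 ± 0.1995), and Csf3r, the G-CSF receptor of neutrophils, from 10.4, 2.81 and 8.44 to 41.5, 125 and 31.96 FPKM (2.92 ± 0.54). The rises of this list numbered 4 without LPS replicate 2. Of 12 genes of the interleukin 6 family Il6ra, the receptor chain, rose by 1.01 ± 0.1997, and 2 genes rose without that library. Tnf stood at 3.18, 83.8 and 4.52 FPKM and Il6 at 1.41, 25.4 and 1.39 FPKM across the LPS libraries, and neither passed (adjusted p = 0.0873 and 0.141), although Tnf did without LPS replicate 2 (1.71, adjusted p = 0.0293). Il10, an anti-inflammatory cytokine, was below the filter, with a highest value of 0.652 FPKM, in LPS replicate 2.

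Genes that sense LPS and genes that limit NF-kB lay above control, with 0 of 17 and 0 of 18 past the threshold in limma and 9 and 8 at an unadjusted p under 0.05. Without LPS replicate 2, 3 and 2 genes rose, Trem1 and Nfkbiz among them. Of 17 genes of LPS recognition 16 had a difference above 0 (median 0.71, 0.36 without LPS replicate 2). The smallest p were those of Tirap, an adaptor of the receptor (0.75, adjusted p = 0.0553), and Trem1, an amplifying receptor of neutrophils and monocytes (2.64, adjusted p = 0.0566). Tlr4 itself stood at 3.78, 3.41 and 3.03 and at 4.67, 12.2 and 3.997 FPKM, and without LPS replicate 2 its difference was 0.27. All 18 NF-kB subunits and induced inhibitors lay above 0 (median 0.72, 0.35 without LPS replicate 2), led by Zc3h12a, a ribonuclease that degrades cytokine mRNA (1.75, adjusted p = 0.0563), and Nfkbiz (1.48, adjusted p = 0.0703). All 15 guanylate-binding proteins and immunity-related GTPases, which attack vacuoles of intracellular microbes, were above 0 as well, with a median of 2.84; none passed in limma and 10 had an unadjusted p under 0.05. Their mean exceeded that of the controls by 2.57, 5.38 and 0.497 in LPS replicates 1, 2 and 3, so LPS replicate 2 was far above the other LPS libraries. Gbp9 (2.08, adjusted p = 0.0918) and Gbp4 (3.22, adjusted p = 0.107) had the smallest p. Of 14 MHC class I and immunoproteasome genes H2-Q7, which has close copies, rose by 2.27 ± 0.496, and B2m, the light chain of class I molecules, missed the threshold (2.09, adjusted p = 0.0553) but passed without LPS replicate 2, when 3 genes of this list rose.

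**Figure D3:**
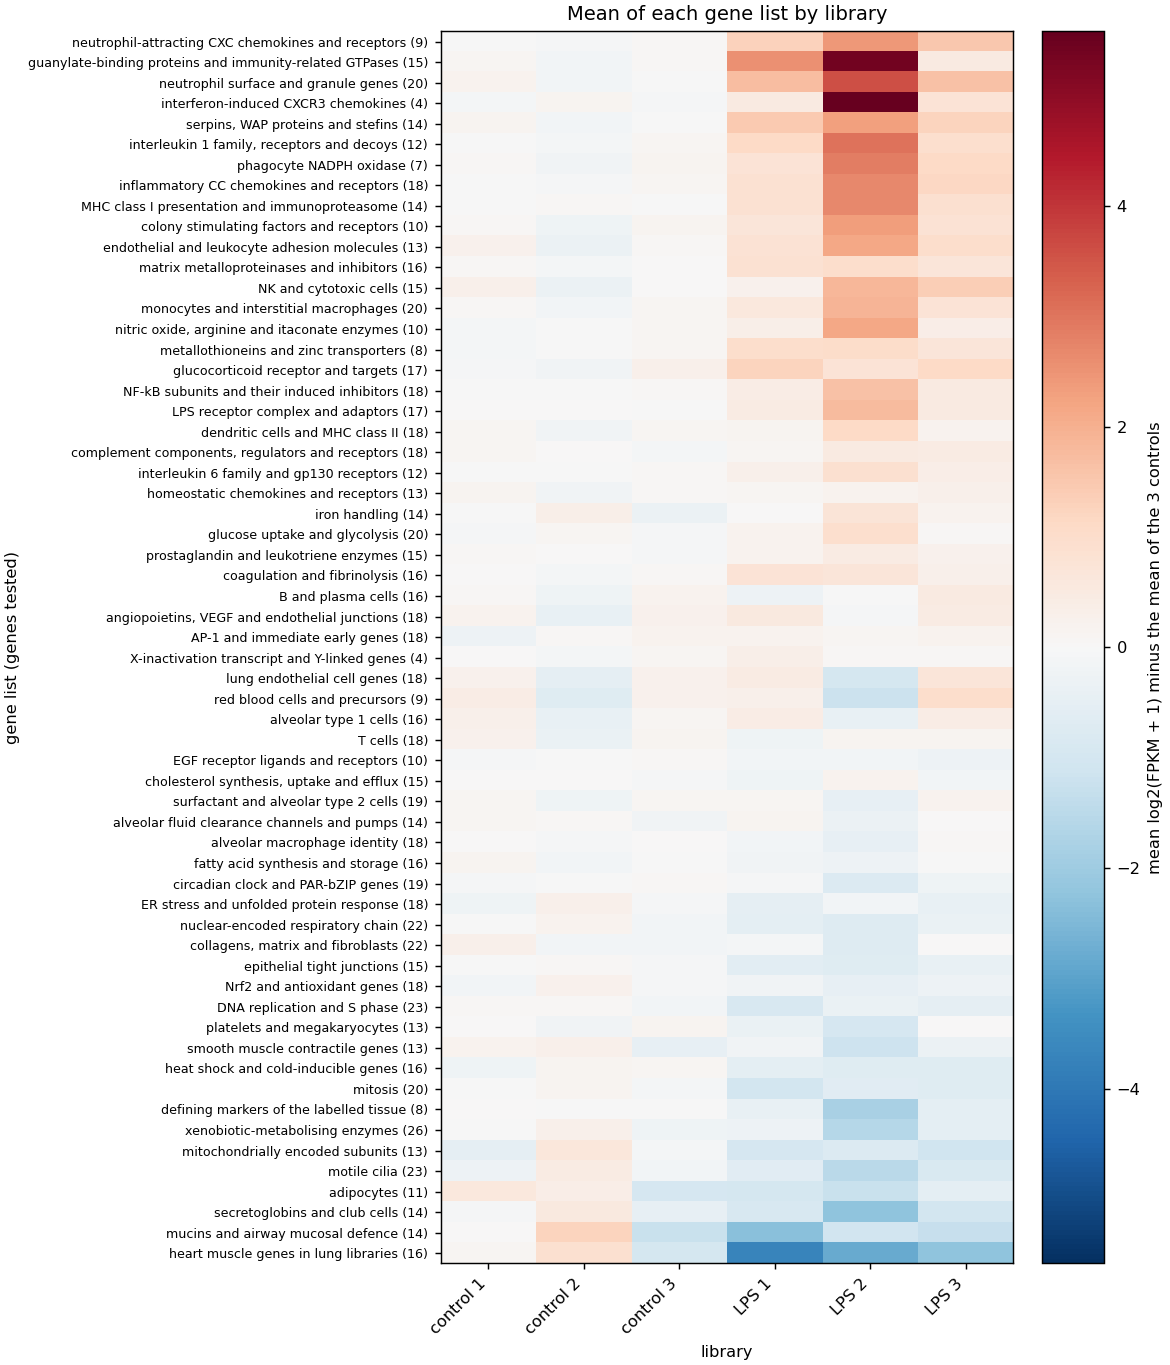
Mean log2(FPKM + 1) of each of the 60 gene lists in each library, minus the mean of the 3 controls; red is above and blue below control, and the number of genes tested is in brackets. The column of LPS replicate 2 is the darkest for guanylate-binding proteins (5.38) and CXCR3 chemokines (5.58), while heart muscle genes are low in every LPS library and unequal among controls.

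Of 20 neutrophil genes 10 rose and none fell (median 2.77, 1.96 without LPS replicate 2, where 14 rose), and their summed level ran from 444, 218 and 259 FPKM across controls to 2011, 5307 and 1374 FPKM across LPS. S100a8 and S100a9, the subunits of calprotectin, rose by 3.82 ± 0.68 and 3.56 ± 0.68, and Ly6g, the surface marker of mouse neutrophils, stood at 0.693, 0.406 and 0.123 and at 6.87, 24.1 and 4.08 FPKM (2.85 ± 0.52). Mmp8, a neutrophil collagenase, rose by 3.28 ± 0.604. Mpo, Elane and Ctsg, granule genes made early in the marrow, were below 1 FPKM in each of the 6 libraries and were not tested. Of the phagocyte NADPH oxidase, which makes superoxide, Ncf4 had a difference of 1.997 (adjusted p = 0.0523), Cybb 2.82 (0.0807), Rac2 1.61 (0.0792), Ncf1 1.901 (0.101), Cyba 0.72 (0.149) and Hvcn1 0.197 (0.699), none past the threshold. Without LPS replicate 2 Cybb, Ncf1 and Ncf4 passed.

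Alox5ap, the partner of 5-lipoxygenase at the start of leukotriene synthesis, was the single call of 15 eicosanoid genes and stood at 9.24, 8.698 and 9.47 and at 21.6, 37.1 and 29.1 FPKM (1.55 ± 0.22, adjusted p = 0.0276). Alox5 itself had a difference of 0.29 (adjusted p = 0.408), and Ptgs2, the inducible cyclooxygenase, stood at 10.03, 11.3 and 8.25 and at 4.002, 16.7 and 5.497 FPKM, lower in LPS replicates 1 and 3 than in any control and higher in LPS replicate 2. Without LPS replicate 2 Ptgs2 passed, with a difference of -0.92 (adjusted p = 0.0314). Of 13 adhesion genes Itgam, a chain of the leukocyte integrin Mac-1, rose by 2.53 ± 0.42 and Selplg, the ligand of P-selectin, by 1.59 ± 0.32, while endothelial Icam1 had a difference of 1.12 (adjusted p = 0.105). Without LPS replicate 2, 5 adhesion genes rose. Of 20 monocyte and interstitial macrophage genes 2 rose (5 without LPS replicate 2), Adgre4 by 2.68 ± 0.47 and Nr4a1, a factor of patrolling monocytes and an immediate early gene, by 1.01 ± 0.21. Of 18 alveolar macrophage genes Atp6v0d2, a proton pump subunit, rose by 0.73 ± 0.16, but it did not pass without LPS replicate 2 (adjusted p = 0.0602). Nos2, which makes nitric oxide in activated macrophages, stood at 1.72, 0.779 and 1.65 and at 1.34, 68.6 and 1.902 FPKM, high in LPS replicate 2 alone. Acod1, which makes itaconate there, stood at 0.0906, 0 and 0.0883 and at 3.699, 496 and 3.31 FPKM and was above control in each LPS library (adjusted p = 0.11, and 0.00475 without LPS replicate 2). None of the 10 genes of that list passed in limma on all libraries, and 6 had an unadjusted p under 0.05; Odc1 (-0.85, adjusted p = 0.0514) and Arg2 (1.28, adjusted p = 0.0673) had the smallest p, and Odc1 passed without LPS replicate 2 (-1.03, adjusted p = 0.027).

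Protease inhibitors and metalloproteinase genes gave 10 rises and no fall. Of 14 antiproteases 6 rose (median 2.13, 2.08 without LPS replicate 2). Besides Serpina3n they were Wfdc17 (3.93 ± 0.69), Stfa2 (3.197 ± 0.499), Stfa3 (2.83 ± 0.44), Serpina1b, a copy of alpha-1-antitrypsin (1.13 ± 0.25), and Slpi, the elastase inhibitor of airway secretions. Slpi stood at 26.9, 18.1 and 13.8 and at 80.05, 52.6 and 82.4 FPKM (1.84 ± 0.26, adjusted p = 0.0263), with LPS replicate 2 the lowest of the LPS libraries. Of 16 metalloproteinase genes 4 rose, including Mmp9, the gelatinase of neutrophils (2.38 ± 0.33), Mmp14, a membrane-bound protease (1.26 ± 0.29), and Timp3, an inhibitor held in the matrix (1.91 ± 0.42). Serpina1b (adjusted p = 0.069) and Timp3 (0.0682) did not pass without LPS replicate 2. Plat, the tissue plasminogen activator, stood at 7.39, 5.83 and 5.74 and at 16.2, 13.1 and 12.5 FPKM (1.03 ± 0.16, adjusted p = 0.0283). Of 18 complement genes none passed in limma and 8 had an unadjusted p under 0.05, with C3 at 1.32 (adjusted p = 0.0502) and C5ar1, the receptor of the anaphylatoxin C5a, at 2.12 (0.059); both passed without LPS replicate 2, as 2 of 18.

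Metal handling moved in both directions. Slc39a8 and Slc39a14, importers of zinc and manganese, rose: Slc39a8 stood at 18.9, 8.81 and 16.8 and at 49.7, 68.8 and 42.3 FPKM (1.82 ± 0.32), and Slc39a14 at 2.98, 2.75 and 2.499 and at 6.59, 10.98 and 5.39 FPKM (1.16 ± 0.24). Among the other 6 tested members of the metallothionein and zinc list Mt2, which binds zinc, stood at 1.82, 2.38 and 2.66 and at 15.99, 20.8 and 11.99 FPKM without passing in the fit of all 9 libraries (adjusted p = 0.0795), although it was among the 9 genes called from 6 libraries. Mt1 had a difference of 1.62 (0.0653), Slc39a4 0.4 (0.303), Slc30a1 0.48 (0.167), Mtf1 0.08 (0.738) and Mt3 -0.69 (0.255). Of 14 iron genes Lcn2 rose and Hamp fell, with 2 rises and 1 fall without LPS replicate 2. Hamp, which encodes hepcidin, the hormone that blocks iron export, stood at 16.5, 40.1 and 6.36 and at 0.292, 3.84 and 1.85 FPKM (-2.74 ± 0.62, adjusted p = 0.0498). The control values of Hamp spread over several fold, lowest in control replicate 3, in the same order as those of the heart muscle genes; the part of that tissue in the result was not tested.

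Endothelial genes gave 2 rises and no fall among 18 junction and angiopoietin genes. S1pr1, the receptor through which sphingosine 1-phosphate tightens vessels, stood at 61.1, 36.7 and 59.9 and at 119, 132 and 93.4 FPKM (1.13 ± 0.23), and Adm, adrenomedullin, a vasodilating peptide, at 4.99, 3.07 and 5.22 and at 36.1, 25.3 and 11.9 FPKM (2.12 ± 0.36). S1pr1 did not pass without LPS replicate 2 (adjusted p = 0.0585). Cdh5, the cadherin of endothelial junctions, had a difference of 0.52 (adjusted p = 0.361). Of 18 genes of lung endothelial identity none passed in limma, nor at an unadjusted p under 0.05 (0 genes), with Aplnr (-1.51, adjusted p = 0.186) and Prx (0.82, adjusted p = 0.199) at the smallest p; Prx passed without LPS replicate 2 (adjusted p = 0.0462). The list mean lay 0.456, -0.997 and 0.673 from the controls in LPS replicates 1, 2 and 3, so that LPS replicate 2 was low where the other LPS libraries were above control, and control replicate 2 was the lowest control. Its median, 0.07, was 0.61 without LPS replicate 2 and turned negative without control replicate 2, LPS replicate 1 or LPS replicate 3.

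Of 15 tight junction genes 5 fell and none rose, beside 2.55% lower among all genes tested, with a median of -0.37 (-0.34 without LPS replicate 2). Cldn4, a claudin that seals the alveolar and airway epithelium, stood at 66.6, 135 and 97.1 FPKM in control replicates 1, 2 and 3 and at 15.01, 24.5 and 35.98 FPKM in the LPS replicates (-1.97 ± 0.33, adjusted p = 0.0307). Cldn7 stood at 65.5, 104 and 68.9 and at 21.3, 22.2 and 31.9 FPKM (-1.61 ± 0.22, adjusted p = 0.0221). In both genes LPS replicate 2 lay among the other LPS libraries. Cldn3 stood at 153, 255 and 168 and at 62.8, 35.8 and 99.8 FPKM (-1.61 ± 0.34) and Cldn2, a claudin that forms a pore for cations, at 5.05, 4.33 and 3.31 and at 1.51, 1.58 and 2.35 FPKM (-0.89 ± 0.18); Cldn2 did not pass without LPS replicate 2 (adjusted p = 0.058). Cdh1, E-cadherin, the adhesion protein beneath the tight junction, stood at 112, 146 and 122 and at 72.6, 84.8 and 71.6 FPKM (-0.72 ± 0.16, adjusted p = 0.0481). Cldn18, the claudin of alveolar cells, stood at 125, 73.1 and 99.4 and at 97.1, 76.3 and 97.6 FPKM, so its groups overlapped (-0.11, adjusted p = 0.757). The scaffold gene Tjp1 (0.25) and the adhesion molecule F11r (0.06) did not pass.

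Of the EGF receptor ligands, Areg and Btc fell. Areg, amphiregulin, a ligand made in epithelial repair and by lymphoid cells, stood at 10.1, 19.3 and 19.1 FPKM in control and 2.02, 4.49 and 4.56 FPKM in LPS (-1.87 ± 0.31, adjusted p = 0.0304); it was matched by its identifier ENSMUSG00000029378, which the table names Mcub. Btc, betacellulin, stood at 2.68, 2.08 and 3.24 and at 1.03, 0.378 and 0.6705 FPKM (-1.12 ± 0.21, adjusted p = 0.0395). Areg also passed with the replicate block (adjusted p = 0.0302). Hbegf, a ligand shed from macrophages and epithelium, stood at 18.9, 10.1 and 14.9 and at 16.9, 26.9 and 24.4 FPKM (0.62, adjusted p = 0.15), and Tgfa at 3.42, 3.84 and 3.59 and at 5.28, 4.06 and 3.74 FPKM. The receptor Egfr had a difference of 0.28 and its feedback inhibitor Errfi1 of 0.78 (adjusted p = 0.0808). The list of 10 genes had 2 falls and a median of -0.03, whose sign turned under each of the 3 other scalings.

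Secretory and ciliated airway genes lay mostly below control, with unequal controls. Their falls are to be read beside the 2.55% lower among all genes tested. Of 14 mucin and mucosal defence genes 2 fell: Muc1, a mucin anchored to the cell surface, from 135, 157 and 138 to 74.5, 61.9 and 86.6 FPKM (-0.95 ± 0.16, adjusted p = 0.0318), and Agr2, the chaperone of mucin folding, from 29.8, 70.7 and 7.63 to 0.5104, 2.95 and 3.61 FPKM (-3.15 ± 0.72, adjusted p = 0.0498). Control replicate 3 was the lowest control and control replicate 2 the highest in this list, whose summed level was 1396, 4489 and 775 FPKM in the controls and 384, 569 and 696 FPKM in LPS. Bpifa1, an abundant antimicrobial protein of the upper airway, stood at 315, 766 and 21.5 and at 1.67, 69.1 and 5.36 FPKM and did not pass (adjusted p = 0.121), with LPS replicate 2 above control replicate 3. Of 14 secretoglobin and club cell genes Scgb3a2 and Gabrp, a subunit of an epithelial chloride channel (-1.26 ± 0.29), fell. All 23 motile cilia genes lay below 0 and 3 fell, the dynein genes Dnah5 (-0.91 ± 0.19) and Dnai1 (-1.24 ± 0.27) and the cilium gene Cfap45 (-1.22 ± 0.27). Enzymes that metabolise foreign compounds had 3 falls of 26: Gsto1, a glutathione transferase, from 196, 326 and 135 to 58.8, 45.2 and 79.5 FPKM (-1.77 ± 0.32), Cyp2s1, a cytochrome of airway epithelium (-1.43 ± 0.28), and Ces1f, a carboxylesterase (-1.09 ± 0.24). Ces1f is listed at 0 in LPS replicate 2. Agr2 (adjusted p = 0.0598), Scgb3a2, Gabrp (0.0737), Cfap45 (0.0645) and Ces1f (0.0713) did not pass when that library was left out. In limma an unadjusted p under 0.05 was found in 20 of the 23 cilia genes, beside 4857 of the 16227 genes tested. It was found in 8 of 14 mucosal genes, 7 of 14 club cell genes and 13 of 26 genes of foreign-compound metabolism.

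Alveolar cell lists gave 1 call among 16 type 1 genes, and 1 rise and 1 fall among 19 type 2 genes. These counts are too small to be set above or below the 3.78% called among all genes tested. Of 16 alveolar type 1 genes Pdpn, podoplanin, rose from 64.8, 36.7 and 55.6 to 95.04, 104 and 113 FPKM (1.01 ± 0.21), while Ager stood at 788, 409.7 and 781 and at 816, 399 and 978 FPKM and overlapped. Of 19 type 2 genes Slc6a14, an amino acid transporter, rose from 21.1, 19.04 and 21.6 to 57.8, 42.4 and 36.7 FPKM (1.09 ± 0.24) and Muc1 fell. Pdpn (adjusted p = 0.0534) and Slc6a14 (0.0542) did not pass without LPS replicate 2. The surfactant genes Sftpb (-0.94, adjusted p = 0.0807) and Sftpc (-0.79, 0.39) did not pass, nor did Sftpa1 (0.01). Sftpd, a collectin that binds LPS, stood at 126, 146 and 116 and at 228, 161 and 274 FPKM without passing (adjusted p = 0.0747), but passed without LPS replicate 2 (0.95, adjusted p = 0.029). The sign of the type 2 list median, -0.06, turned under the 3 other scalings and without LPS replicate 2. Of 14 genes of alveolar fluid clearance Sgk1, a kinase that activates the epithelial sodium channel, rose by 1.44 ± 0.32, and the channel subunit Scnn1a had a difference of 0.602 (adjusted p = 0.105); without LPS replicate 2, 2 of the 14 rose.

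Heart muscle genes fell, and the controls differed widely among themselves. Of 16 heart muscle genes 14 fell (median -3.14, -3.05 without LPS replicate 2, where 11 fell), and their summed level was 803, 1378 and 364 FPKM in control replicates 1, 2 and 3 and 103, 117 and 185 FPKM in LPS replicates 1, 2 and 3. Cox7a1, the muscle form of a cytochrome c oxidase subunit, stood at 15.98, 31.8 and 11.4 and at 0.896, 1.23 and 1.85 FPKM (-3.05 ± 0.35, adjusted p = 0.0127). Myh6, the atrial and ventricular myosin heavy chain of the mouse, stood at 39.3, 55.7 and 19.7 and at 0.695, 7.27 and 8.47 FPKM (-2.83 ± 0.64). Ckm, muscle creatine kinase, fell by 1.86 ± 0.31. The sources used here do not say how much heart or vein muscle each piece of lung held. Of 11 adipocyte genes Lpl, which macrophages also express, rose by 1.55 ± 0.23 and none passed as a fall. Yet 8 of the 11 lay below 0 (median -1.21, -0.897 without LPS replicate 2), with Cfd the furthest (-3.13, adjusted p = 0.0632). An unadjusted p under 0.05 was found in 8 of the 11, with rises as well as falls among them. Control replicate 3 was lower than every LPS library in the summed adipocyte level, 257, 216 and 72.98 FPKM in the controls and 113, 88.6 and 122 FPKM in LPS. Of 22 nuclear genes of the respiratory chain all lay below 0 and Cox7a1 was the single fall, followed by Cox5a (-0.49, adjusted p = 0.0765); the 13 mitochondrially encoded genes gave no call in limma but 12 at an unadjusted p under 0.05, with mt-Nd4l at -1.24 (0.0569) and mt-Nd3 at -1.07 (0.0703). Without LPS replicate 2, mt-Nd4l passed (adjusted p = 0.0449).

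Matrix genes divided. Col4a1, a collagen of basement membranes, stood at 180.1, 97.1 and 147 and at 367, 371 and 348 FPKM (1.395 ± 0.23, adjusted p = 0.0304), and Pdgfra rose by 1.502 ± 0.27. Mfap5, a protein of elastic microfibrils, fell from 17.6, 17.5 and 13.2 to 7.83, 3.49 and 8.49 FPKM (-1.24 ± 0.27), and Col14a1, a collagen bound to fibrils, from 9.14, 7.93 and 4.44 to 2.44, 0.674 and 2.85 FPKM (-1.49 ± 0.34). These were the 4 calls among 22 fibroblast genes, whose median of -0.37 was 0.02 without LPS replicate 2, where Col14a1 did not pass (adjusted p = 0.0543). Of 13 smooth muscle genes none passed in limma and 5 had an unadjusted p under 0.05 (median -0.61, -0.29 without LPS replicate 2), with Hhip (-0.72, adjusted p = 0.0945) and Lmod1 (-0.93, adjusted p = 0.119) at the smallest p.

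Most heat shock genes lay below control, and 1 cold-inducible gene rose. Heat shock proteins hold other proteins in their fold, and their genes are driven by the factor HSF1 through repeats of GAA and its inverse. Of 16 genes 3 fell and 1 rose, and 15 lay below 0 (median -0.64, -0.71 without LPS replicate 2). Hsph1, a large chaperone that exchanges the nucleotide of HSP70, stood at 19.1, 30.2 and 23.7 FPKM in control and at 8.49, 10.6 and 7.19 FPKM in LPS (-1.37 ± 0.21, adjusted p = 0.0288). Dnaja1, a co-chaperone of HSP70, stood at 33.4, 40.4 and 41.2 and at 24.7, 23.1 and 21.1 FPKM (-0.71 ± 0.13), and Hspd1, the mitochondrial chaperone HSP60, at 85.8, 115 and 107 and at 55.8, 67.1 and 49.5 FPKM (-0.83 ± 0.16). In these 3 genes LPS replicate 2 did not stand apart from the other LPS libraries. Without LPS replicate 2, 5 genes fell, now with Hsp90aa1 and Hsp90ab1. Rbm3, an RNA-binding protein induced by mild cold, rose from 31.6, 36.2 and 36.02 to 56.2, 61.3 and 48.7 FPKM (0.66 ± 0.13, adjusted p = 0.0415). Cirbp, the other cold-inducible gene of the list, stood at 24.6, 20.2 and 22.03 and at 32.4, 7.61 and 32.4 FPKM, above every control in LPS replicates 1 and 3 and below in LPS replicate 2.

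Promoter windows of the 3 genes that fell are shown for the letters GAANNTTC (capitals), a pair of facing heat shock repeats, found in 8 of 11 listed genes with a window and in 6.9% of 11127 tested genes. Hspd1 and Hspe1 share 1 stretch between them and count as 2 of the 8 genes. Hspa1a and Hspa1b held the same 8 letters, GAAGATTC, at the same distance from the start and count as 2 more. Windows were Hsph1 (chr5:149636287-149636586, minus strand), Dnaja1 (chr4:40722218-40722517, plus strand) and Hspd1 (chr1:55087883-55088182, minus strand) on GRCm38.p6; where a gene has several starts, the first window with a match is given. Of the windows, 2 of 2 held the letters in Hsph1, 1 of 3 in Dnaja1 and 1 of 2 in Hspd1. The match shown for Hsph1 began 42 bases after the annotated start, those for Dnaja1 and Hspd1 before it.
Hsph1: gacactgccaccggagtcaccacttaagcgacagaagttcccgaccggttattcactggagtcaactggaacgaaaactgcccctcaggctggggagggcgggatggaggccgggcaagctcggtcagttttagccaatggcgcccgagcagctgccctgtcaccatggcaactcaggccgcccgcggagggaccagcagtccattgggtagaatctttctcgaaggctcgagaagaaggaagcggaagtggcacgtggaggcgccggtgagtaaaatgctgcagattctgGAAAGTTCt
Dnaja1: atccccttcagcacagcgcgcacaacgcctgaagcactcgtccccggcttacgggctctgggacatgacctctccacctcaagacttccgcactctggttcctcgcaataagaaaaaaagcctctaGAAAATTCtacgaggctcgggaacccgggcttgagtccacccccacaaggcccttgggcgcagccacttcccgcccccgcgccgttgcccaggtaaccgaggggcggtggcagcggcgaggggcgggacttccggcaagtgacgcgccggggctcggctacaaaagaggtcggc
Hspd1: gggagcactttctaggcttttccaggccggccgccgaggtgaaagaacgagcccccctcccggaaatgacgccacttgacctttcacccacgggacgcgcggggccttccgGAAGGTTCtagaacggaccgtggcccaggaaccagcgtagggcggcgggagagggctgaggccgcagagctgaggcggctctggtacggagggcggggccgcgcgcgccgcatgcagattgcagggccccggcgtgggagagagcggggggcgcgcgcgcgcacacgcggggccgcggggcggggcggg

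Dbp, a transcription factor at the output of the circadian clock, stood at 21.1, 17.4 and 21.6 and at 6.06, 1.097 and 6.33 FPKM (-2.13 ± 0.44, adjusted p = 0.0423), lowest in LPS replicate 2. Hlf, of the same family, stood at 4.26, 3.38 and 3.36 and at 1.69, 0.649 and 1.09 FPKM (-1.15 ± 0.21). Tef, the other member of that family in the list, had a difference of -0.61 (adjusted p = 0.235). Arntl, the core activator BMAL1, had a difference of 0.66 (adjusted p = 0.0533) and its repressor Nr1d1 of -1.56 (0.0779). Of 19 clock genes Dbp and Hlf were the calls, and the list median of -0.25 was 0.06 without LPS replicate 2. The sources used here do not give the hour of sampling, so it and LPS cannot be told apart for these genes. Of 17 genes of the glucocorticoid response 5 rose, but 2 without LPS replicate 2, where Hif3a (adjusted p = 0.0521), Fkbp5 (0.0649) and Cdkn1a (0.0596) did not pass. Angptl4 stood at 4.17, 2.75 and 17.1 and at 37.2, 29.99 and 40.8 FPKM, and Hif3a at 0.478, 0.275 and 1.01 and at 2.75, 2.47 and 3.38 FPKM (1.303 ± 0.28). Fkbp5 and Cdkn1a rose by 1.79 ± 0.38 and 1.67 ± 0.36. Of 18 immediate early genes Nr4a1 rose and its relative Nr4a2 fell, from 3.16, 4.27 and 3.67 to 1.76, 1.23 and 2.05 FPKM (-0.82 ± 0.17); Nr4a2 did not pass without LPS replicate 2 (adjusted p = 0.0597), where 2 genes of the list rose.

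All 20 mitosis genes and all 23 replication genes lay below 0, with 4 and 1 falls (6 and 2 without LPS replicate 2). Ccnb1, cyclin B1, stood at 2.63, 3.02 and 2.79 and at 0.668, 1.199 and 0.7601 FPKM (-1.03 ± 0.15), and Tyms, thymidylate synthase, at 3.08, 3.64 and 3.37 and at 1.102, 1.68 and 1.87 FPKM (-0.79 ± 0.16). The other falls were Cdk1 (-1.18 ± 0.19), Ube2c (-1.301 ± 0.23) and Tpx2 (-0.91 ± 0.196). Of 16 mitosis genes with a promoter window 14 held the letters CCAAT and 11 TTTGAA, against 42.0% and 14.6% of tested genes. CCAAT was frequent too in clock (13 of 16), heat and cold shock (8 of 11) and replication genes (10 of 16). It was held by 2 of 8 neutrophil chemokine genes and 2 of 9 genes with the widest rises. Creld2, an endoplasmic reticulum protein induced by misfolding, stood at 56.4, 92.1 and 62.9 and at 27.1, 34.03 and 35.5 FPKM (-1.08 ± 0.23) and was the single call of 18 genes of the unfolded protein response, before Pdia6 (-0.86, adjusted p = 0.0583). Creld2 did not pass without LPS replicate 2 (adjusted p = 0.0517). Cyp51, an enzyme of cholesterol synthesis, fell by 0.83 ± 0.18, as the single call of 15 genes. The sign of that list's median, -0.04, turned under the 3 other scalings. Plin2, the coat protein of lipid droplets, rose from 29.1, 31.3 and 41.5 to 74.6, 118 and 61.2 FPKM (1.25 ± 0.26) as the single call of 16 fatty acid genes. Of 18 Nrf2 and antioxidant genes none passed in limma and 9 had an unadjusted p under 0.05, with Gpx2 (-1.59, adjusted p = 0.0502) and Srxn1 (-0.8997, adjusted p = 0.0579) nearest. Of 20 glycolysis entries none passed either and 5 had an unadjusted p under 0.05, beside 4857 of the 16227 genes tested. Pkm (0.56) and Hk3 (2.25) had the smallest p, and Hk3 passed without LPS replicate 2 (1.01, adjusted p = 0.0101).

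Lymphoid, dendritic and blood lists gave 2 calls in all. All 15 NK and cytotoxic genes lay above 0 without a call in limma, 8 with an unadjusted p under 0.05, led by Gzmb (2.49, adjusted p = 0.0761) and Prf1 (1.77, adjusted p = 0.0897). Their FPKM summed to 35.7, 201 and 152 over LPS replicates 1, 2 and 3, against 40.3, 14.4 and 28.4 over the controls. Of 18 T cell genes Ccr7 was the single call, lost without LPS replicate 2, followed by Lef1 (-0.296, adjusted p = 0.343). None of 16 B and plasma cell genes passed in limma (1 at an unadjusted p under 0.05), with Mzb1 (-0.68, adjusted p = 0.0673) nearest, and none of 18 dendritic and MHC class II genes (1 at an unadjusted p under 0.05), with Cd209a (-1.42, adjusted p = 0.0565) and Bst2 (0.703) nearest. Of 13 platelet genes Nfe2, a factor of megakaryocytes and neutrophils, rose by 1.09 ± 0.198, and 10 lay below 0. None of 9 red cell genes passed in limma or at an unadjusted p under 0.05 (0 genes), Slc4a1 among them (0.28). Their summed level was lowest in LPS replicate 2, at 2188 FPKM.

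**Figure D4:**
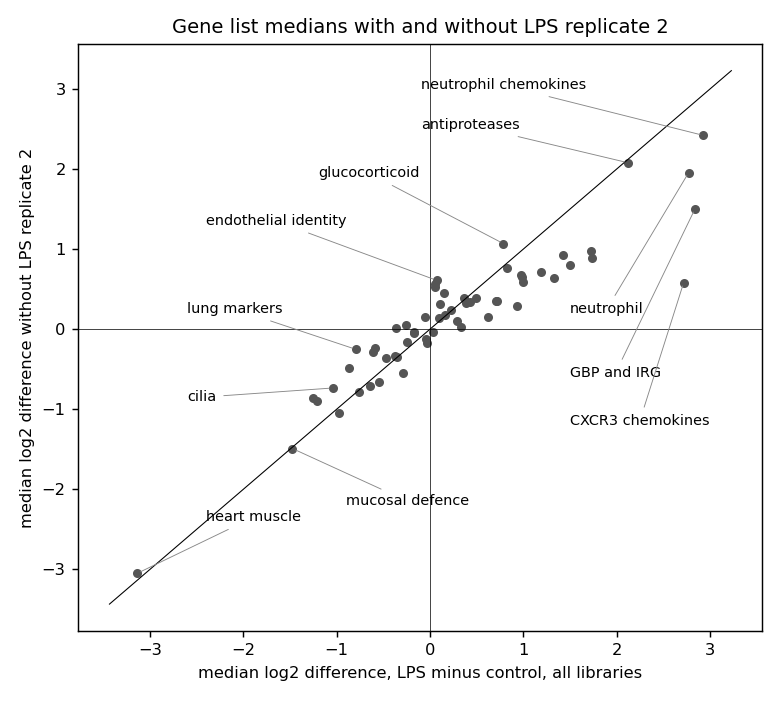
Median log2 difference, LPS minus control, of each of the 60 lists with all libraries (horizontal axis) and without LPS replicate 2 (vertical axis); the diagonal marks equality. Heart muscle, mucosal defence and antiprotease lists lie near the diagonal, while the CXCR3 chemokines drop from 2.72 to 0.58 and the guanylate-binding proteins from 2.84 to 1.505.

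Of the 115 genes named by the rule or in the text that passed, 95 still passed without LPS replicate 2, 8 when only 6 libraries were fitted, 9 with the replicate block and 7 without control replicate 2, and none changed sign in any of the 20 alternatives.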

How the data were processed

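Total RNA from lung was enriched for poly A and sequenced, per the labels' protocols. Per the submitters' processing notes the tools were bcl2fastq, FastQC, HISAT2 and StringTie with the GRCm38 build; the sources used here give no versions. The authors deposited a table of FPKM values for 32114 genes in 9 libraries. Nearly all single-exon values under 100 reads (99.0% to 99.4% within 0.05 of a whole number) were multiples of 1 read, and the smallest depth that fitted these steps was taken as the depth, after a wider search range had picked doubled steps in 3 libraries. FPKM holds no counts, so no count test was made.

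Genes with a mean of at least 0.5 FPKM were transformed to log2(FPKM + 1), which understates the change of low genes. limma 3.58.1 in R 4.3.3 fitted 3 group means to all 9 libraries with a variance trend, and p-values were adjusted by Benjamini and Hochberg over 16227 genes, with a threshold of 0.05. The procedure was tested on simulated data with independent normal noise, of equal spread in all libraries for each gene. These simulated data held no library that stood apart, as LPS replicate 2 does here. An SE is that of the fitted difference, with 3 libraries in each group. Labels pair the libraries by number only: same-numbered libraries deviated from their group means with correlations of -0.091, -0.057 and -0.11 across genes, so the numbers were not taken to pair them.

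The comparison, its members and the gene lists were chosen with earlier results of these data known, and a few listed symbols were matched by gene identifier or synonym after the table was seen. Genes named in the text are the 12 rises and the 12 falls with the widest gap between groups that did not overlap, up to 4 members past the threshold in each list, the 2 with the smallest p where fewer than 2 passed, all members of lists of 8 or fewer, and Tnf, Il6 and Il10. Other genes, the set called in most fits with a library left out, the letters of the NF-kB motif and the fit of 6 libraries without LPS replicate 2 were chosen after values were seen. Promoter windows come from RefSeq. A few genes that this rule names are not reported here.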

Additional observations from a re-analysis of the deposited data

How the results depend on the processing

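The count of genes past the threshold, 613 with 200 higher and 413 lower, depended strongly on the fit, and the cause was not tested. It was 38 with no filter on low values (18 higher, 20 lower), 270 with a mean of at least 5 FPKM (132 and 138), 370 with median-ratio scaling (160 and 210), 392 with equal FPKM totals (204 and 188), 9 when only the 6 libraries compared were fitted (8 and 1), 3308 with array weights (1257 and 2051) and 260 with the 6 libraries less LPS replicate 2 (180 and 80), a fit added after the data were seen. A pseudocount of 0.1 gave 270 lower. With the replicate number as a block 10 genes passed (6 higher, 4 lower). The labels do not say whether libraries of equal number share a litter or day, and the numbers were not taken to pair them. Leaving out 1 library gave 7 to 1038 genes, 4 to 315 higher and 3 to 723 lower, with the fewest without control replicate 2 and the most without LPS replicate 3.

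Of the 115 genes named by the rule or in the text that passed, the number that still passed ran from 7 (without control replicate 2) to 115 (array weights), with 9 under the replicate block. None changed sign, which only the 3 other scalings could have brought about in genes whose groups do not overlap. Among named genes that had not passed, 10 changed sign in some fit. Hvcn1 was -0.10 with array weights and -0.21 without LPS replicate 2, also with 6 libraries, and 0.42 without LPS replicate 3. Mtf1 was -0.012 without LPS replicate 2, also with 6 libraries, and 0.17 without LPS replicate 3. Slc4a1 was -0.037 without LPS replicate 3 and 0.602 without LPS replicate 2, and Eif2s3y -0.061 without LPS replicate 1 and 0.215 without LPS replicate 2. Sftpa1 took -0.13 when control replicate 3 was left out, and -0.0083, 0.22 and -0.19 when LPS replicates 1, 2 and 3 were left out in turn. Ager took -0.20 when control replicate 2 was left out, and -0.015, 0.4995 and -0.15 for the same 3 LPS replicates. Cldn18 was 0.033 with median-ratio scaling, 0.088 with equal totals, 0.073 without control replicate 1, -0.31 without control replicate 2 and 0.0063 without LPS replicate 2, also with 6 libraries. Alox5 was -0.029 with array weights. Cirbp, -0.13 as reported, was 0.0069 with median-ratio scaling, 0.062 with equal totals, 0.41 with array weights, 0.53 without LPS replicate 2, also with 6 libraries, and -0.45 without LPS replicate 3. F11r was -0.0062 without control replicate 2 and 0.11 without LPS replicate 2. The medians of 13 of the 60 lists took the other sign in some fit.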
